A study of Mus musculus with 96 samples.

Results

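The 35 genes described here are markers of Kupffer cells, the macrophages that live in the sinusoids of the liver, and of other macrophages and the monocytes they can arise from. They were listed by name, with no threshold on any value. All 35 had a probe set among the 18193 genes measured on the arrays. By their usual roles, 7 are markers of resident Kupffer cells, 5 are markers of recruited monocytes and their recruitment, 15 are markers of macrophages in general, and 8 are surface and signalling genes of myeloid cells or of all leukocytes.

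Liver RNA came from CD-1 mice, an outbred stock, of both sexes, with 96 arrays in all. PB, an abbreviation the labels leave unexplained, was given in the diet at 5 doses, namely 0.15, then 1.5, then 15, 75 and finally 150 mg/kg-day, and the controls (dose 0) had none. Livers were taken on day 2 or day 7, and each of the 24 groups had 4 arrays. The titles call these numbers ppm, while the design text calls them mg/kg-day, which is followed below. The series title names CAR, the nuclear receptor through which such compounds induce drug metabolism, and the dose-response of early steps towards liver tumours. The labels give no age and do not say whether each array stands for 1 mouse, so the p-values measure the spread between these arrays. Values are on the log2 scale, where a difference of 1 is a doubling.

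Kupffer cells take up bacteria, dying cells and debris from portal blood through scavenger, complement and Fc receptors, and they make much of the liver's cytokine response. In the steady state they renew themselves in place. After injury or loss of resident cells, monocytes that carry Ccr2 enter along a gradient of its ligand Ccl2 and can take on a Kupffer cell phenotype. The transcription factor PU.1, encoded by Spi1, and signalling through the receptor encoded by Csf1r are needed for macrophages in general.

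The arrays matched their labels for sex, with the X-inactivation transcript Xist at 12 to 12.5 in females and 4.63 to 5.89 in males. Cyp2b10, the classic target of CAR, rose by 5.44 to 6.11 on the log2 scale in the 4 comparisons of 150 with dose 0. On 2 arrays of males on day 2 it went against the label. Cyp2b10 was 13.66 on the array labelled 15, replicate 1, against 11.07 to 11.29 on the other arrays of that label, and 10.98 on the array labelled 75, replicate 1, against 13.19 to 13.36 on the others. Leaving out both arrays changed no call of a marker at 150 or at a lower dose, and of the calls in the dose trend it removed that of Lyz2 in females on day 7 (limma, adjusted p = 0.0510). The labels give no batch.

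All resident markers were well detected. Their chosen probe sets averaged between 6.88 for Timd4 and 11.47 for Cd5l over the 96 arrays, where the lower quartile of an array was at most 4.09. Itgam, encoding the integrin chain CD11b of monocytes and neutrophils, averaged 3.94 and lay above that value in 2 of 24 group means, so its changes are close to the floor of the arrays. The chosen probe set of Lyz1, a lysozyme gene, is of a type whose probes can also bind related transcripts. Its values cannot be told apart from those of Lyz2, and a more specific probe set of Lyz1 averaged 3.40. The 4 probe sets of Ccr2 did not track each other, with residual correlations of 0.10 to 0.21 with the chosen one over the 96 arrays, so values of Ccr2 are uncertain.

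The clearest change was in males on day 7. At 150 against dose 0, 6 of 35 markers rose and none fell, where 3.04% of all genes passed the same test in either direction. In whole liver, more macrophages and more RNA of these genes per macrophage cannot be told apart. The rises were in Mpeg1, Cd5l, Ptprc, Laptm5, Adgre1 and Msr1, and ran from 0.48 to 1.28 on the log2 scale. The median change over the 35 markers was 0.52, against 0.00 over all genes, and 30 of 35 changes were positive, as were 50.8% over all genes. For 18 markers every treated array lay above every control array, which held for 5.13% of all genes.

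Mpeg1, encoding perforin-2, a pore-forming protein that macrophages use against engulfed bacteria, had 10.85, 11.44, 9.77 and 10.15 in males at 150 on day 7, against 9.43, 9.25, 9.18 and 9.24 at dose 0. The treated arrays differed among themselves by more than the whole span of the controls, yet the lowest of them was above the highest control. The change was 1.28 ± 0.30 (SE), or 2.42-fold (limma, adjusted p = 0.00452).

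Cd5l, encoding a secreted scavenger protein that resident macrophages make, had 12.01, 12.34, 11.74 and 11.68 at 150, against 11.19, 10.91, 10.86 and 10.41 at dose 0. The groups did not overlap, and their spreads were alike, with an SD of 0.30 at 150 and 0.32 at dose 0 (n = 4 each). Cd5l was 2.15-fold higher at 150, a log2 change of 1.10 ± 0.27 (SE; limma, adjusted p = 0.00835).

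Ptprc, encoding the phosphatase CD45 found on all leukocytes, had 8.07, 8.85, 7.78 and 7.86 at 150, against 7.54, 7.30, 7.58 and 6.62 at dose 0. Replicate 2 of the treated males was the highest and replicate 4 of the controls the lowest. The log2 change was 0.88 ± 0.24 (SE; limma, adjusted p = 0.0200). Laptm5, encoding a lysosomal membrane protein of leukocytes, had 8.30, 8.90, 8.01 and 8.0 at 150, against 7.87, 7.63, 7.69 and 6.89 at dose 0, with the same arrays at the extremes. Its change was 0.78 ± 0.23 (SE; adjusted p = 0.0377). Laptm5 has 5 probe sets, which disagreed: their mean gave 0.25 and no call, and one of them had a residual correlation of -0.35 with the chosen one. The chosen one is of the same type as that of Lyz1, whose probes can also bind related transcripts. In order of brightness, the others changed by 0.46, -0.20, 0.11 and 0.11.

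Adgre1, encoding F4/80, the surface protein most used to recognise mouse macrophages, had 8.64, 9.06, 8.67 and 8.33 at 150, against 8.18, 7.96, 8.01 and 7.49 at dose 0. Its change was 0.77 ± 0.22 (SE; limma, adjusted p = 0.0315). Msr1, encoding the class A scavenger receptor, had 8.90, 9.06, 8.65 and 8.88 at 150, against 8.5, 8.31, 8.56 and 8.21 at dose 0. This was the smallest of the rises, 0.48 ± 0.14 (SE; adjusted p = 0.0440). The residual SD of Msr1, 0.21, was below the median of the markers, 0.318, but above that of all genes, 0.15. Both genes had groups that did not overlap.

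**Figure D1:**
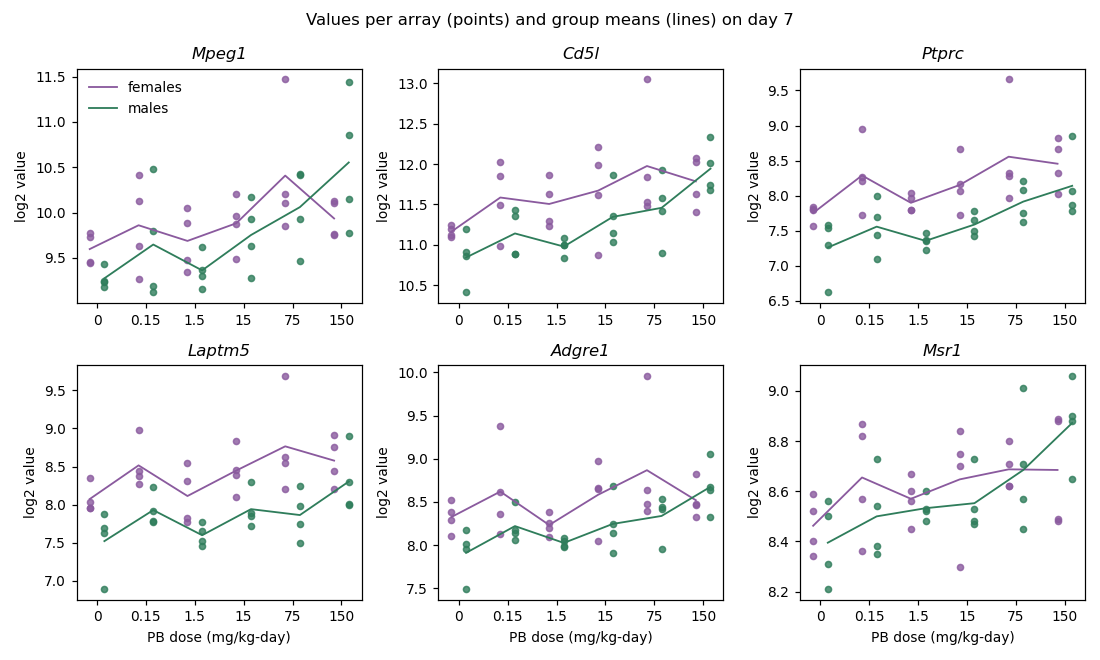
Log2 values of the 6 markers that rose in males at 150 mg/kg-day on day 7, plotted against dose on day 7; points are arrays (4 per group), lines join group means, purple is females and green is males. In males all 4 arrays at 150 lie above all 4 at dose 0 in each panel, and in females the highest point of all panels but Msr1 is the same array at 75.

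These calls rested on few arrays. Leaving out 1 array in turn gave 8 fits, with between 0 and 8 markers called and a median change between 0.42 and 0.64. Without replicate 2 at 150 no marker was called (smallest adjusted p = 0.0671, 18 markers higher at an unadjusted p under 0.05), without replicate 4 at dose 0 only Mpeg1 was, and 3 were called without replicate 1 at 150 or replicate 2 at dose 0. Replicate 2 was the highest treated array for 27 of 35 markers, and replicate 4 the lowest control for 26 of 35. Over all 96 arrays, that control held the lowest value of 16 of the 35 markers. Mpeg1 stayed past the threshold in 7 of the 8 fits, Cd5l and Ptprc in 6, Laptm5 in 4, Adgre1 in 3 and Msr1 in 2.

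Promoter sequences of RefSeq, build GRCm38.p6, were available for 27 of the 35 genes, each 300 bases long with 250 before and 50 from the annotated start. They are shown because macrophage genes are commonly controlled by PU.1, whose site has the core GAGGAA. That core stood on one or the other strand in the promoters of 15 of 27 markers, or 55.6%, against 31.3% of the 27025 genes and 28.3% of the 32851 promoters of the table. The interferon-stimulated response element, searched on both strands as GAAA, 2 bases of any kind and GAAA again, stood in 1 of 27, the promoter of Aif1, or 3.7%, against 3.99% of all genes and 3.44% of all promoters. None of the sequences printed below held the interferon-stimulated response element. A match is a run of letters and not a measured site.

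Of the 6 markers that rose in males on day 7, 4 had a promoter in the table. Capitals mark the PU.1 core, or its complement TTCCTC where it lies on the other strand. The window of Cd5l is chr3:87357631-87357930 on the plus strand, that of Laptm5 chr4:130913066-130913365 on the plus strand, that of Ptprc chr1:138175256-138175555 on the minus strand, and that of Mpeg1, which has no such core, chr19:12460520-12460819 on the plus strand. All are printed 5′ to 3′ in the direction of the gene.
Cd5l: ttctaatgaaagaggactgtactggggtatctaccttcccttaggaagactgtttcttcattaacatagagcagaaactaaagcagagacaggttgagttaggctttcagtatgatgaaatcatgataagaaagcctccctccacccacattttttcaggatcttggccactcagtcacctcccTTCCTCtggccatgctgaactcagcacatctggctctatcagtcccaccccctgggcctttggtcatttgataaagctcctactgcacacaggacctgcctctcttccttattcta
Laptm5: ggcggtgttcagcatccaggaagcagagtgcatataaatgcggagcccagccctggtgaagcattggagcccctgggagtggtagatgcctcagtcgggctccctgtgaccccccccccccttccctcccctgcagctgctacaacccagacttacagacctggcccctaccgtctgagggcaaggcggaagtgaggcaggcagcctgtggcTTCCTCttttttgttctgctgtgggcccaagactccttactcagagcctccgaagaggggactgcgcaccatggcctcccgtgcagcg
Ptprc: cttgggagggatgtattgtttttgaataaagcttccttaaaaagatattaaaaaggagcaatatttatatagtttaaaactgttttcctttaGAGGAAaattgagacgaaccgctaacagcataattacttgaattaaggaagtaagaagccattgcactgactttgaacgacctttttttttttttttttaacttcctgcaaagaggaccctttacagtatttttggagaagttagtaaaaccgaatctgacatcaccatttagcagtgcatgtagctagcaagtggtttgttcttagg
Mpeg1: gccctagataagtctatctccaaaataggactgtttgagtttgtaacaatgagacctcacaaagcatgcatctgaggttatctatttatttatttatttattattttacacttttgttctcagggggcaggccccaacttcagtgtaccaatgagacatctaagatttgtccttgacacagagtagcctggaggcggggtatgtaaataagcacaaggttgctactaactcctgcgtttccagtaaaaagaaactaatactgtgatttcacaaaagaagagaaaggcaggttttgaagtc
Cd5l, Laptm5 and Ptprc had 1 match each in these windows, and Ptprc had a second start whose window had none. The marker that rose most, Mpeg1, was without one.

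Most other general macrophage markers had changes of like size in the same comparison without passing the test. The 3 chains of complement C1q, which tags dying cells for uptake, changed by 0.66 for C1qa, 0.65 for C1qb and 0.62 for C1qc (limma, adjusted p = 0.0580, 0.0940 and 0.103). For C1qa the values were 10.49, 10.96, 10.26 and 10.36 at 150, against 10.19, 9.73, 10 and 9.51 at dose 0, with no overlap. Cd68, a protein of lysosomal membranes, changed by 0.70 (adjusted p = 0.0672), and Aif1, encoding the actin-binding protein Iba1, by 0.88 (adjusted p = 0.0795). The adaptors Tyrobp and Fcer1g, through which Fc and Trem receptors signal, changed by 0.80 and 0.66 (adjusted p = 0.0606 and 0.0867). In all, 24 markers were higher and 1 was lower at an unadjusted p under 0.05, where 8.82% of all genes were higher and 6.1% lower.

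A minority of markers showed no such change. Trem2, encoding a lipid receptor of macrophages in injured or fatty tissue, had 6.02, 5.71, 6.14 and 5.84 at 150, against 5.86, 5.98, 5.77 and 6.09 at dose 0, a log2 change of 0.00 with a 95% interval of -0.21 to 0.21. Mrc1, encoding the mannose receptor, which liver sinusoidal endothelium also carries, had 9.26, 9.66, 9.34 and 9.22 at 150, against 9.46, 9.34, 9.44 and 9.36 at dose 0, a change of -0.03 with an interval of -0.27 to 0.21. In both genes the groups overlapped. Irf8, encoding a transcription factor of monocytes, changed by -0.08 (interval -0.45 to 0.28). Its other probe set was almost as bright (6.61, against 6.65) but changed by 0.26. With a residual correlation of 0.37 between them, the change of Irf8 is uncertain.

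**Figure D2:**
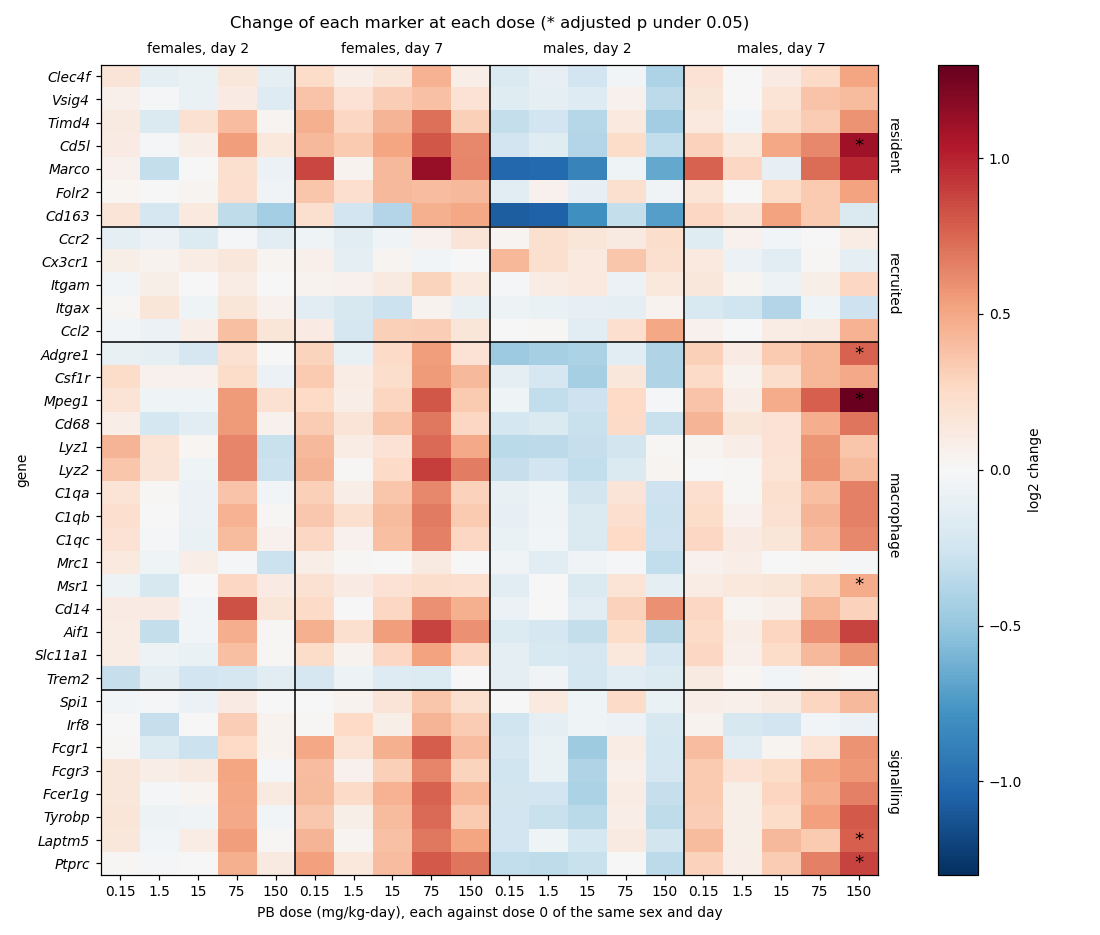
Log2 change of each of the 35 markers (rows, grouped by class) at each dose, relative to the controls matched for sex and day (columns); red is higher and blue is lower at the dose, and an asterisk marks an adjusted p under 0.05. The 6 asterisks all stand in the last column, males at 150 on day 7; the 5 columns of a block share their 4 control arrays.

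Resident markers had larger median changes than recruited ones on day 7, a comparison of classes given with no test. In males on day 7 at 150, the resident markers had a median change of 0.52, with 1 of 7 called, and the recruited markers one of 0.10, with 0 of 5 called. The general macrophage markers, with a median of 0.57, and the signalling genes, with 0.62, changed as much as the resident ones. Marco, a scavenger receptor of resident cells that binds bacteria, had 7.33, 7.96, 7.03 and 7.26 at 150, against 6.56, 6.39, 6.71 and 6.01 at dose 0. Its groups did not overlap, but it varied widely between arrays, and its change of 0.98 ± 0.39 (SE) had an adjusted p of 0.182. Clec4f, a lectin made in mice by Kupffer cells almost alone, had 10.53, 10.65, 10.42 and 10.14 at 150, against 10.30, 9.78, 9.96 and 9.64 at dose 0. The lowest treated array lay under the highest control, and the change was 0.51 ± 0.19 (SE; adjusted p = 0.140).

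Timd4, a receptor for phosphatidylserine on dying cells, changed by 0.58, Folr2, the folate receptor of resident macrophages, by 0.52, and Vsig4, a complement receptor, by 0.41. None of these passed the test. Cd163, the receptor that clears haemoglobin, stood out from the class by its spread. It had 5.55, 8.14, 7.65 and 6.42 at 150, against 7.93, 7.35, 6.98 and 6.28 at dose 0, a change of -0.19 with a 95% interval of -1.23 to 0.85. Both groups spanned a wide range, and its residual SD of 0.76 was the largest of the 35.

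Among the recruited markers, Ccr2 had 6.64, 6.34, 6.52 and 6.57 in treated males on day 7, against 6.34, 6.38, 6.29 and 6.67 in controls. Cx3cr1, the receptor for fractalkine on patrolling monocytes, had 5.49, 5.33, 5.21 and 5.32, against 5.45, 5.37, 5.73 and 5.26 in controls. Itgax, encoding the integrin chain CD11c, had 4.99, 4.99, 5.22 and 5.36, against 5.23, 5.26, 5.55 and 5.62 in controls. For all 3 the groups overlapped, with changes of 0.10, -0.12 and -0.27 (limma, adjusted p = 0.782, 0.827 and 0.276). Ccl2, a chemokine that many cell types make, had the largest change in the class, with 6.20, 6.34, 5.82 and 5.97 at 150, against 5.58, 5.81, 5.51 and 5.62 at dose 0, and a change of 0.45 ± 0.16 (SE; adjusted p = 0.128). Itgam changed by 0.27 (adjusted p = 0.128) near the floor of the arrays.

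On each array, the mean log2 value of the 7 resident markers less that of the 5 recruited ones averaged 3.53 ± 0.38 in males at 150 on day 7, against 3.06 ± 0.37 at dose 0 (SD, n = 4 each). The ranges, 3.18 to 4.01 and 2.57 to 3.47, overlapped. In females on day 7 it averaged 3.86 ± 0.29 at 150, against 3.54 ± 0.16 at dose 0, and in females on day 2 3.69 ± 0.28, against 3.81 ± 0.21. In males on day 2 it was lower, 2.94 ± 0.30 at 150, against 3.59 ± 0.51 at dose 0. These differences of 0.47, 0.33, -0.12 and -0.65 between dose groups are given as a description, with no test. Single arrays moved them. For males on day 2 the difference was -0.39 without replicate 3 at dose 0, whose value of 4.35 was the highest of that group. For males on day 7 it was 0.31 without replicate 2 at 150 and also without replicate 4 at dose 0, and in females on day 7 it was 0.21 without replicate 2 at 150. In females on day 2 leaving out 1 array gave -0.22 to -0.01. Among all male arrays the mean of the recruited markers ranged over 0.46, and that of the resident markers over 1.69. The recruited markers were dimmer, averaging between 3.94 and 6.31. Their median residual SD was 0.18, against 0.377 for the resident markers. They also hardly varied together (median correlation 0.04), which narrows the range of their mean. What this range says of monocyte numbers was not tested.

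**Figure D3:**
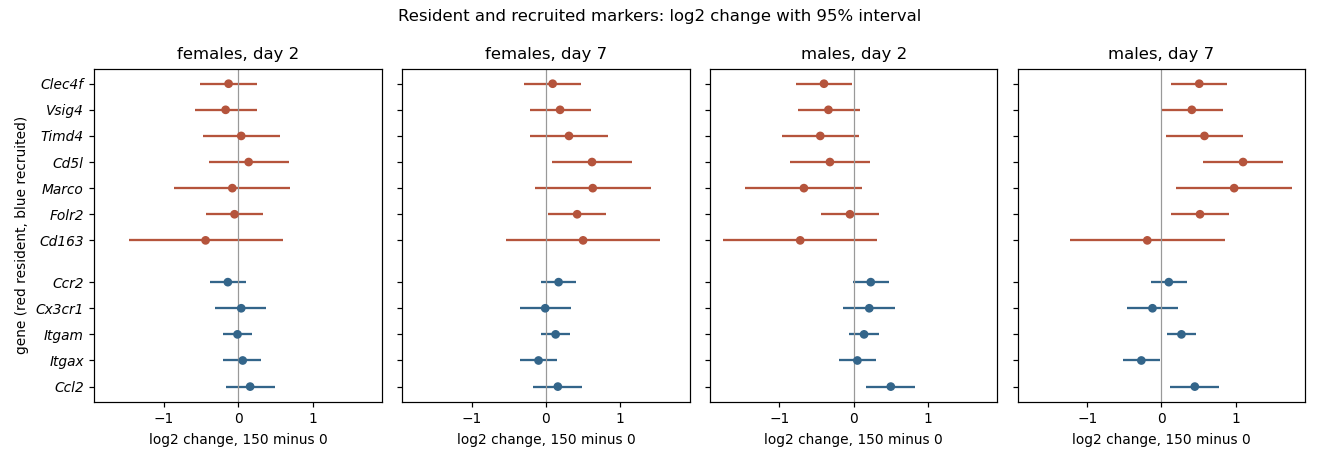
Log2 change at 150 mg/kg-day against dose 0 (x axis) for the 7 resident (red) and 5 recruited (blue) markers in each sex and day; points are the estimates and lines their 95% intervals from limma. On day 7 in males 6 of 7 resident estimates are above 0.4, while on day 2 in males all 7 resident estimates are below 0 and all 5 recruited ones above it.

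In females on day 7, no marker passed the test at 150, where 2.45% of all genes did. The median change was 0.31, against -0.02 over all genes, and 32 of 35 changes were positive, as were 44.7% over all genes. The lowest dose, 0.15, gave the same median of 0.31 and the same 32 of 35 positive changes against the same control arrays. So the shift in females on day 7 was not particular to 150. At 150, 6 markers were higher at an unadjusted p under 0.05, against 6.49% of all genes. All treated arrays lay above all controls for 5 markers, against 4.31% of all genes. Ptprc came closest, with 8.02, 8.66, 8.82 and 8.32 at 150, against 7.84, 7.57, 7.79 and 7.81 at dose 0, a change of 0.70 ± 0.24 (SE; limma, adjusted p = 0.109). Lyz2, the lysozyme of macrophages and neutrophils, had 10.06, 10.49, 10.73 and 10.08, against 9.44, 9.53, 10 and 9.71, a change of 0.67 ± 0.26 (SE; adjusted p = 0.192). Neither gene's groups overlapped. Marco had 7.61, 8.27, 8.11 and 8.10, against 7.02, 7.46, 7.38 and 7.69, with 1 treated array inside the control range and a change of 0.63 ± 0.39 (SE; adjusted p = 0.513).

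Clec4f in females on day 7 had 10.18, 10.88, 10.47 and 10.38 at 150, against 10.18, 10.52, 10.34 and 10.51 at dose 0, a change of 0.09 with an interval of -0.29 to 0.47. Adgre1 likewise overlapped, with 8.48, 8.82, 8.32 and 8.46, against 8.11, 8.29, 8.38 and 8.52, and Mpeg1, which rose most in males, changed by 0.34 ± 0.30 (SE; adjusted p = 0.693). The lowest changes were -0.10 for Itgax, -0.01 for Mrc1 and -0.01 for Cx3cr1, all with overlapping groups. A difference between the sexes in the response on day 7 was tested directly. None of the 35 markers passed (limma), where 0.0879% of all genes did, and 1 was lower at an unadjusted p under 0.05, against 2.95% of all genes. That was Mpeg1, with a female response 0.94 lower than the male one (95% interval -1.78 to -0.10, adjusted p = 0.997). On day 2 none passed either, against 0.0055% of all genes.

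On day 2 no marker passed the test at 150 in either sex, although 5.46% of all genes did in females and 4.9% in males. In females the median change was 0.02, against -0.03 over all genes. Adgre1 there had 8.6, 8.59, 8.26 and 8.57 at 150, against 8.44, 8.30, 8.48 and 8.75 at dose 0, and C1qa 10.23, 10.39, 10.08 and 10.61, against 10.31, 10.23, 10.23 and 10.69. In both genes the groups overlapped. Mrc1 was the one marker below its controls on every array, which held for 5.61% of all genes, with 9.05, 9.24, 9.31 and 9.36 at 150, against 9.44, 9.47, 9.57 and 9.58, a change of -0.28 ± 0.12 (SE; adjusted p = 0.207). The other low changes were -0.44 for Cd163 and -0.29 for Lyz1, and the highest were 0.20 for Mpeg1 and 0.16 for Ccl2 and Cd14, all with overlap.

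In males on day 2 the median change was -0.24, against -0.02 over all genes, with 8 of 35 changes above 0, against 44.6% over all genes. This median turned on 1 control array. Replicate 3 at dose 0 had a mean of the 35 markers 0.56 above the mean over all arrays, against -0.34 to -0.25 on the other 3 controls, and it was the highest control for 30 of 35 markers. Marco, for example, had 6.44, 6.48, 6.12 and 6.91 at 150, against 6.72, 6.61, 8.30 and 7.01 at dose 0, and Timd4 6.17, 6.06, 6.73 and 6.48, against 6.33, 6.85, 7.62 and 6.45. Leaving it out was decided after the values were seen. Without that array the median change was 0.04, with 20 of 35 changes above 0. No resident marker was called with it or without it.

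Ccl2 and Cd14 had the largest positive changes in males on day 2. Ccl2 had 6.95, 6.05, 5.82 and 5.93 at 150, against 5.51, 5.55, 5.92 and 5.77 at dose 0, a change of 0.50 ± 0.16 (SE; limma, adjusted p = 0.0627). Cd14, the co-receptor for bacterial lipopolysaccharide, had 8.75, 6.51, 7.06 and 7.10, against 6.70, 6.20, 7.33 and 6.81, a change of 0.59 ± 0.25 (adjusted p = 0.179). The array with the highest Ccl2, replicate 1, also had the highest Cd14, which was the highest of all 96 arrays for both genes. Ccl2 was called without replicate 3 or 4 at 150 or replicate 3 at dose 0 (limma, adjusted p = 0.0224, 0.0439 and 0.0493), and Cd14 without replicate 2 at 150 (adjusted p = 0.0334). Without replicate 1 at 150, the array highest for both genes, no marker was called. None was called without replicate 1, 2 or 4 at dose 0 either.

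**Figure D4:**
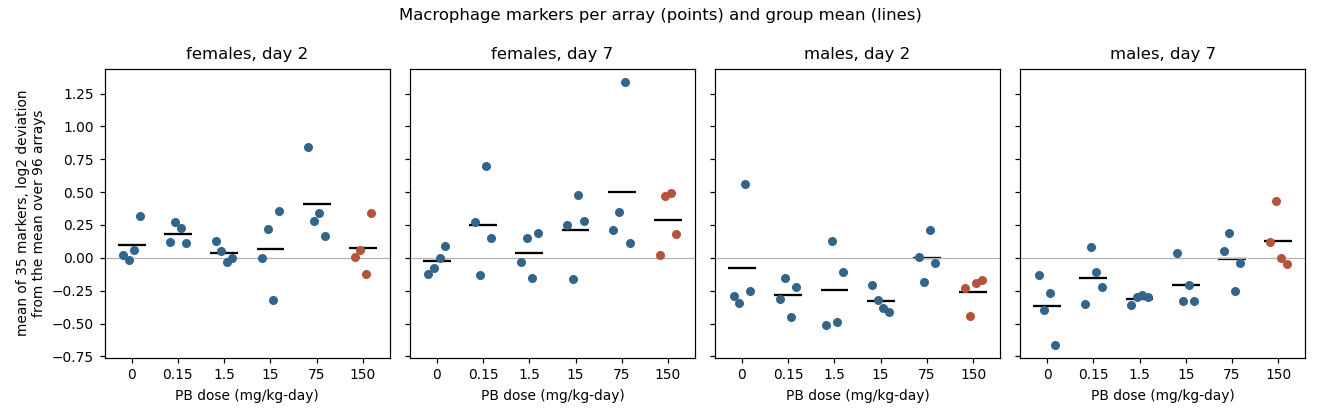
Mean of the 35 markers on each array, as the log2 deviation from each gene's mean over the 96 arrays, against PB dose in the 4 combinations of sex and day; points are arrays (red at 150, blue below), lines are group means. On day 7 the means at 150 are 0.29 in females and 0.12 in males, against -0.03 and -0.36 at dose 0. At 0.15 on day 7 they are 0.25 in females and -0.15 in males. Single arrays at female 75 on day 7 (1.34) and male dose 0 on day 2 (0.56) lie above the others of their groups.

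Below 150, no marker was called in any of the 16 comparisons with dose 0. Of all genes, 0.451% were called at 75 in females and 0.44% in males on day 2, and 0.764% and 0.247% on day 7. At 15 the shares were 0.022% in females and 0.0385% in males on day 2, and 0.022% and 0.011% on day 7, and at 0.15 and 1.5 they were 0% but for 0.0055% at 0.15 in males on day 7. All 5 doses of a sex and day share the same 4 control arrays. The highest values of most markers nevertheless came from 1 array at 75. Replicate 3 of the females at 75 on day 7 had a mean of the 35 markers of 1.34, against 0.21, 0.35 and 0.11 on the others of its group, and held the highest value of all 96 arrays for 27 of 35 markers. Marco was 10.31 on it, against 7.95, 8.29 and 7.52 on the other arrays at 75 and 7.02 to 7.69 at dose 0. Lyz2 was 11.88, against 10.27, 10.45 and 9.67 on the others and 9.44 to 10 at dose 0.

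With that array, 26 of 35 markers in females at 75 on day 7 were higher than at dose 0 at an unadjusted p under 0.05, where 5.69% of all genes were. The median change was 0.59, and the smallest adjusted p was 0.0663, for Fcer1g (limma). Without it, 0 of 35 were higher at that level and the median change was 0.28. The same array was high in markers of other leukocytes. The mean of 7 natural killer cell markers was 6.80, against 5.44, 5.53 and 5.17 on the others of its group, and that of 10 T cell markers 5.53, against 5.12, 5.25 and 5.12. The mean of 11 hepatocyte genes, 13.57, lay inside the range of the other 3. What part other cells had in its values was not tested.

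In males at 75 on day 7 the median change was 0.39, with 33 of 35 changes positive, as were 51.2% over all genes, and 12 markers higher at an unadjusted p under 0.05, against 5.53% of all genes. Mpeg1, Ptprc and Spi1 had all treated arrays above all controls, as had 3.09% of all genes. In females at 75 on day 2 the median change was 0.37, with 9 markers higher at that level, against 4.5% of all genes. Cd14 led there, with 8.08, 7.43, 7.94 and 8.09 at 75, against 7.12, 6.82, 7.09 and 7.17 at dose 0, a change of 0.83 ± 0.25 (SE; limma, adjusted p = 0.118), and at 150 its change was 0.16. At 15 and below, medians lay between -0.24 and 0.31. The highest was that of females at 0.15 on day 7, with 32 of 35 changes positive. In males at 0.15 on day 7 the median was 0.24, also with 32 of 35 positive.

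A linear trend over the ranks of the 6 doses used all arrays of a sex and day. In males on day 7 it called 8 of 35 markers, all upward, where 4.46% of all genes were called: Mpeg1, Cd5l, Ptprc, Msr1, Adgre1, C1qa, Aif1 and Tyrobp. Mpeg1 averaged 9.28 ± 0.11 at 0, 9.64 ± 0.63 at 0.15, 9.36 ± 0.19 at 1.5, 9.75 ± 0.38 at 15, 10.06 ± 0.46 at 75 and 10.55 ± 0.74 at 150 (SD, n = 4 each). The steps were not even, with 0.15 above 1.5. Its fitted change from the lowest to the highest rank was 1.14 ± 0.25 (SE; limma, adjusted p = 0.00159). Cd5l averaged 10.84, 11.14, 10.98, 11.35, 11.46 and 11.94 over the same doses, a fitted change of 0.98 ± 0.23 (SE; adjusted p = 0.00359).

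Ptprc in males on day 7 averaged 7.26, 7.56, 7.35, 7.59, 7.92 and 8.14 from 0 to 150, a fitted change of 0.81 ± 0.20 (SE; limma, adjusted p = 0.00597). The other fitted changes called lay between 0.43 for Msr1 and 0.80 for Aif1. These calls also depended on single replicates: leaving out replicate 1, 2, 3 or 4 of males on day 7, Cd5l was called in 3 of 4 fits, Mpeg1 in 2, Adgre1 in 0 and the others in 1. Without replicate 2 none of the 8 was called (smallest adjusted p = 0.0553, for Cd5l), and without replicate 1 only Cd5l was. In females on day 7 the trend called Ptprc and Lyz2 (adjusted p = 0.0445 and 0.0472), where 4.35% of all genes were called, and neither without the array at 75 described above (smallest adjusted p = 0.150). Lyz2 was called in 1 and Ptprc in 2 of the 4 fits that left out a replicate number of females on day 7. On day 2 it called none, against 8.73% of all genes in females and 6.04% in males.

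The estimated response at 150 was larger on day 7 than on day 2 for 30 of 35 markers in males. The difference had a median of 0.79 over the 35, against 0.02 over all genes, and 23 were higher at an unadjusted p under 0.05, against 6.33% of all genes, but none passed after adjustment (limma, 0.132% of all genes called). The smallest adjusted p was 0.111, shared by Cd5l, with a difference of 1.42 ± 0.38 (SE), and Adgre1, with 1.16 ± 0.31 (SE). Clec4f differed by 0.91 and C1qa by 0.93. Without replicate 3 of the day 2 controls the median was 0.55 and 17 markers were higher at that level. For the resident class the median difference was 0.91, and for the recruited class -0.13. In females the median was 0.30, with 2 markers higher at that level, against 3.7% of all genes, and none called, against 0.874%.

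Without PB, most markers had higher means in females than in males. On day 7 the median difference over the 35 markers at dose 0, female less male, was 0.35, with 32 positive, against 51.7% over all genes. At an unadjusted p under 0.05, 8 markers were higher in females, against 12% of all genes, and 8 had no overlap, against 7.94%. None passed after adjustment, where 6.71% of all genes did (limma). Marco had 7.02, 7.46, 7.38 and 7.69 in untreated females, against 6.56, 6.39, 6.71 and 6.01 in untreated males, a difference of 0.97 ± 0.39 (SE; adjusted p = 0.138). Without replicate 4 of the untreated males, no marker was higher at that unadjusted level and the median was 0.26. On day 2 the median difference was 0.17, 1 marker was higher at that level, against 6.03% of all genes, and none was called, against 2.06%.

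The markers varied more between arrays of a group than most genes did. Their residual SD, after removal of the group means, had a median of 0.318, against 0.15 over all genes, and 30 of 35 lay above the upper quartile of all genes, 0.182. This spread was largely shared. Over the 96 arrays, with group means removed, the median correlation between markers was 0.60 over 595 pairs. It was 0.78 within the signalling genes, 0.76 within the resident markers, 0.64 within the general macrophage markers and 0.04 within the recruited markers. The arrays share tissue, platform and normalization, and the correlations are a description.

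C1qb and C1qc followed the mean of the other markers most closely, with r = 0.96 each, then Tyrobp with 0.95 and C1qa and Fcer1g with 0.93. Among resident markers Cd5l had 0.90, Clec4f 0.88, Marco 0.87, Vsig4 and Timd4 0.86 and Folr2 0.73, while Cd163 had 0.27. At the low end were Ccr2 with -0.15, Itgax with 0.09, Trem2 with 0.16 and Cx3cr1 with 0.25. Cd163 was thus the lowest of the resident markers and Trem2 the lowest of the general ones. Genes outside the 35 were correlated with the mean of all 35 markers. The most alike were Cd53, a tetraspanin of leukocytes, with 0.94, and Ctss, the cathepsin of antigen-presenting cells, Ly86, Tmsb4x and Fermt3 with 0.93.

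**Figure D5:**
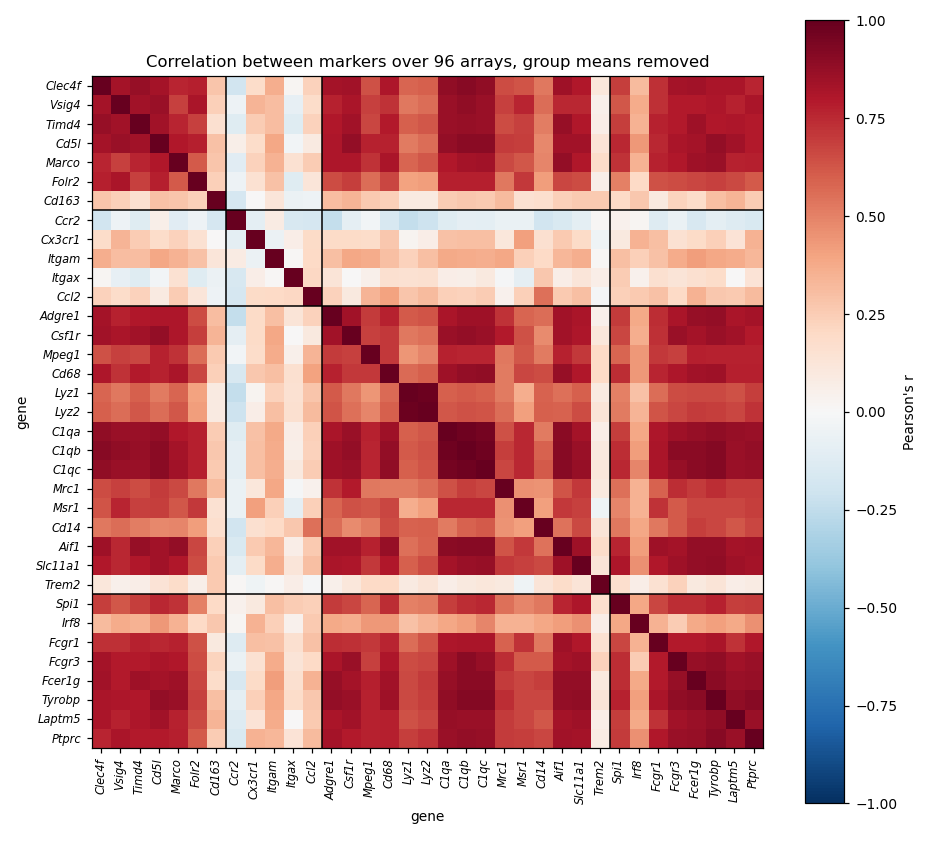
Pearson's correlation between each pair of the 35 markers over the 96 arrays after removal of the group means; rows and columns run in the same order, with black lines between the resident, recruited, general macrophage and signalling classes. Most of the map is red, with a median of 0.60, and the pale bands are the 5 recruited markers, Cd163, Trem2 and, less so, Irf8.

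Other gene lists were read beside the markers in males on day 7 at 150. Of the macrophage genes outside the 35, Ctss rose by 1.01 (limma, adjusted p = 0.00513), Cybb, the catalytic subunit of the phagocyte oxidase, by 0.98 (adjusted p = 0.0264), Cd53 by 0.84 (adjusted p = 0.0267), Cd36, a scavenger receptor that hepatocytes also make, by 0.84 (adjusted p = 0.0104) and Il1b by 0.49 (adjusted p = 0.0363). By list, 1 of 5 oxidase genes, 1 of 7 lysosomal proteases, 1 of 8 genes for uptake of dead cells and 2 of 14 cytokines and chemokines were called, all upward, where 3.04% of all genes passed in either direction. Of 7 genes of the leukocyte cytoskeleton and kinases 1 was called (Cd53) and of 7 Kupffer cell regulators 1 (Irf7). Irf7 is also on the list of interferon response genes and is counted again there. None of 6 MHC class II genes was called, with a median change of 0.69, and none of 5 macrophage growth factor genes, with a median of 0.25. Of the cytokines and chemokines, Ccl9, a chemokine of myeloid cells, rose in all 4 comparisons, by 1.25 and 1.27 in females and males on day 2 and by 0.87 and 0.75 on day 7 (largest adjusted p = 0.000235), whereas no marker rose on day 2. The growth factor Csf1, the ligand of Csf1r, rose by 0.39 in females on day 2 (adjusted p = 0.0280).

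Genes of the interferon response were also higher at 150 on day 7. In males on day 7, 13 of 17 rose at 150, with a median of 1.36, among them Irf7 by 1.74 (limma, adjusted p = 7.41e-06) and Rsad2 by 1.97 (adjusted p = 3.84e-05). Per array, the mean deviation of these 17 genes was 1.22, 1.84, 0.31 and 0.31 at 150, against -0.31, -0.57, -0.01 and -0.47 at dose 0, so replicates 1 and 2 were the highest for them too. In females on day 7, 5 of 17 rose, with a median of 0.74. Of all genes, 3.04% passed in either direction in males on day 7 and 2.45% in females. The part of the interferon response in the marker values was not tested.

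Markers of other cells differed in the same comparison as follows. The mean of 12 neutrophil markers ran from 5.76 to 6.61 at 150, against 5.57 to 5.99 at dose 0, with 1 called upward, S100a8, by 3.22 (limma, adjusted p = 0.00282). That of 7 natural killer cell markers ran from 5.12 to 5.25, against 4.85 to 5.09, with none called, that of 10 T cell markers from 5.05 to 5.23, against 5.02 to 5.19, and that of 7 B cell markers from 5.72 to 6.09, against 5.74 to 6.10. Of 10 stellate cell markers 3 fell, Lrat by 0.88, Dcn by 0.46 and Reln by 0.62 (limma, adjusted p = 0.0294, 0.0296 and 0.0315). Of 11 endothelial markers 1 fell, Stab2 by 0.49 (adjusted p = 0.0360). Over all genes 3.04% passed in either direction. The mean of 11 hepatocyte genes was 13.53 to 13.69, against 13.63 to 13.68, with none called. Of these lists only the natural killer list had ranges that did not overlap. The part of other cells in the marker values was not tested.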

How the data were processed

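Liver RNA was extracted, amplified and labelled with biotin, per the labels' protocols, and hybridised to 96 arrays. The deposited values are log2 expression values made by the authors. Their normalization method was not given in the sources used here. Array medians lay between 5.34 and 5.44. Of 45101 probe sets, 64 controls were left out; 34945 carried 1 gene symbol in the platform annotation, 932 several and 9160 none. Each gene was represented by its probe set with the highest mean, which gave 18193 genes. Means of the 24 groups of sex, dose and day were estimated together in limma 3.58.1 (R 4.3.3), with 72 residual and 4.39 prior degrees of freedom. All tests are two-sided; p-values were adjusted by Benjamini-Hochberg across all genes, with 0.05 as the threshold. "Rose", "fell" and "called" refer to that threshold. Deviations and residuals are from the gene's overall and group mean. The trend used equally spaced weights over 6 dose ranks.

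Every marker could be named. Array values are given for called markers, for the largest changes and for a few set markers, and up to 4 called members of each other gene list are named. The markers, their classes and the lists were chosen with earlier results of these data known. Alternatives tried were quantile normalization, centring on the array median, the mean of all probe sets of a gene, a filter on dim genes, array weights, a trended and robust spread, arrays of one sex and day alone, a replicate block and leaving out arrays. Which single arrays stood apart, and the pair of male arrays that went against their labels, were chosen after seeing the data. On simulated data for males on day 7 with 18193 genes, 86 of 100 genes changed 1.5-fold and 98 of 100 changed 2-fold were recovered, and 13 of 197 calls were false. With the markers' own spread, 12 of 35 changed 1.5-fold were recovered. The simulated noise was drawn for each gene independently, so the spread that the markers share between arrays was left out. The number of arrays limits the precision. Figures were drawn with matplotlib 3.10.9.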

Additional observations from a re-analysis of the deposited data

Results flagged for a closer look

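The means of the 35 markers, the resident markers and the recruited markers in all 24 groups, and the 6 markers that rose in males on day 7 in their treated and control groups, were examined for an array that stood apart, by the gap to its nearest neighbour over the range of the 4 arrays, with Dixon's 95% critical value. Of 84 such tests 4 passed, and chance alone passes about 1 in 20. In untreated males on day 2, replicate 3 had a mean of the 35 markers of 0.56, against -0.34 to -0.25 on the others, and a mean of the resident markers of 0.75, against -0.40 to -0.26. On the same array 7 natural killer cell markers averaged 5.52, against 4.85 to 4.99, and 12 neutrophil markers 6.13, against 5.71 to 5.91. In females at 75 on day 7, replicate 3 had a mean of the recruited markers of 0.38, against 0.05 to 0.08. Its mean of the 35 markers, 1.34, against 0.11 to 0.35 on the others, did not pass. In untreated females on day 7, replicate 1 had a mean of the resident markers of -0.18, against 0.03 to 0.07.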

How the results depend on the processing

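No change of a called marker turned round under any alternative run. In males on day 7 at 150, the 6 calls became 2 with array weights (Mpeg1 and Cd5l), 7 with quantile normalization (the same 6 and Cd68), 8 with a replicate block (the same 6, C1qa and Tyrobp) and 16 with the arrays of males on day 7 alone (the same 6 among them); leaving out 1 array gave 0 to 8, and in males on day 2 0 to 1. At the lower doses, where none was called, 1 was with quantile normalization (Fcer1g, adjusted p = 0.0489), with the mean of probe sets (Ptprc, 0.0343) and with one sex and day alone (Cd14, 0.0160), 2 with the replicate block (Lyz2, 0.0418, and Ptprc, 0.0472), and 0 to 1 without one replicate number. The 10 calls in the trend became 6 with array weights and 17 with one sex and day alone. Both settings lost the calls of Lyz2 and Ptprc in females on day 7. With one sex and day alone, all 17 were in males on day 7. Leaving out a replicate gave 1 to 14 in all. Without replicate 1 of males on day 7, the 1 call left was that of Cd5l in males on day 7. Without replicate 2 of males on day 7, 2 calls were left, neither of them one of the 8 made in males on day 7. The day difference gained 1 call with the mean of probe sets (Ptprc, 0.0377). Correlations between same-numbered arrays at 150 and at dose 0 ran from -0.16 to 0.14. They averaged -0.05 and -0.04 in females on days 2 and 7, and 0.09 and 0.03 in males. Correlations this weak cannot settle whether the numbers pair the arrays. The block changed no other count by over 1.5 times. Arrays left out after seeing the data are named in the text. Limits: 4 arrays a group, unstated normalization, and probe sets of Ccr2, Lyz1, Laptm5, Irf8 and Itgam that are dim, shared or discordant.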
